A study of Mus musculus with 4 samples.

Results

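The genes described here supply, bind, sense and break down retinoic acid in the mouse testis. They are Aldh1a1, Aldh1a2, Rdh10, Rbp4, Crabp2, Rara, Rarg, Rxrb and Cyp26b1, and all 9 were among the 18419 genes of the deposited table. They were listed by name and not by their values, though with earlier results of these data known. Single-cell RNA sequencing in droplets was done on testis cells of outbred ICR mice, and transcripts were counted by their unique molecular identifiers (UMIs). Per the methods of the study, the seminiferous tubules were cut up, washed and digested, and its results state that tubular cells only were collected. The 4 groups were A0, which received water only, A10, which received alginate oligosaccharides (AOS) at 10 mg/kg body weight, B0, which received busulfan and water, and BA10, which received busulfan and the same AOS dose. Busulfan is an alkylating drug that kills dividing germ cells, and AOS are short chains cut from a seaweed polysaccharide. The mice were males, juvenile when treatment began, and per the methods of the study those of the busulfan groups received 1 injection before the AOS or water dosing. Each group was 1 library made from the combined cells of several mice, so no test between groups was possible. All intervals below are 95% intervals of counting error only and do not hold the variation between mice.

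The A0, A10, B0 and BA10 libraries held 8941, 9682, 4659 and 3778 cells, with totals between 25323535 UMIs in B0 and 150812974 UMIs in A0. The lowest UMI count of a cell was 2985 in B0, against 6716 to 9013 in the other libraries, and only 448 B0 cells reached the 9013 UMIs at which BA10 began. Levels are UMIs per 1000000 UMIs of the library or class (CPM), and a level over a library mixes how many cells of a type were captured with how much RNA each held, which cannot be told apart there. Of 26683 distinct barcodes, 374 occurred in more than 1 library. Cells were clustered, and clusters were named by the markers they expressed, where SPG, SPC and ST stand for spermatogonia, spermatocytes and spermatids. ST-like cells were 65.0% of A0 and 65.9% of A10, Leydig-like cells 65.0% of B0, and SPC-like cells 85.3% of BA10. Cluster 16, 796 cells of BA10, took the SPC name by a score of 0.133 against 0.13 for ST, and in the 5 other ways of classing the cells SPC-like cells were 67.4% to 84.3% and ST-like cells 5.11% to 13.4% of BA10, against 4.08% here. The summed level of 6 Leydig cell markers was 7.44 CPM in A0 and 9.54 in A10, against 13876 in B0 and 377 in BA10, and that of 8 spermatid markers was 41177, 47555, 259.8 and 1200.4 CPM. The 3 lymphocyte markers summed to at most 2.80 CPM in any of the 4 libraries. Clusters that stayed unnamed are called by their number.

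Retinol, the transported form of vitamin A, is carried in blood by the protein of Rbp4. The enzyme of Rdh10 oxidizes it to retinaldehyde, and the retinaldehyde dehydrogenases of Aldh1a1 and Aldh1a2 convert that to retinoic acid in a step that is not reversed. Crabp2 encodes a carrier that brings retinoic acid to the nucleus, where retinoic acid receptors such as those of Rara and Rarg act on DNA in pairs with retinoid X receptors such as that of Rxrb. Cyp26b1 encodes an enzyme that breaks retinoic acid down. In the testis, retinoic acid drives the differentiation of spermatogonia and the entry into meiosis, for which Stra8 is the best known responding gene.

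Aldh1a1 lies on chromosome 19 from 20492715 to 20643465 (plus strand, mm10, GENCODE M21), Aldh1a2 on chromosome 9 from 71215789 to 71296243 (plus strand) and Rdh10 on chromosome 1 from 16105774 to 16133734 (plus strand). Rbp4 lies on chromosome 19 from 38116629 to 38125281 (minus strand) and Crabp2 on chromosome 3 from 87948666 to 87953376 (plus strand). The receptor genes lie on chromosome 11 from 98927818 to 98974942 (Rara, plus strand), on chromosome 15 from 102234938 to 102257517 (Rarg, minus strand) and on chromosome 17 from 34031812 to 34038399 (Rxrb, plus strand). Cyp26b1 lies on chromosome 6 from 84571414 to 84593908 (minus strand). No other gene of the deposited table overlapped any of the 9.

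Aldh1a1 and Aldh1a2 encode enzymes for the same reaction, and in these data they were highest in different cells, so the 250 bases before a start site of each are shown. They are the RefSeq entries (GRCm38.p6, the same build as mm10) at chr19:20601718-20601967, the second of 2 start sites of Aldh1a1, and chr9:71215539-71215788, the single one of Aldh1a2, both on the plus strand and written 5′ to 3′. Capitals mark the octamer ATGCAAAT and the CCAAT box.
Aldh1a1: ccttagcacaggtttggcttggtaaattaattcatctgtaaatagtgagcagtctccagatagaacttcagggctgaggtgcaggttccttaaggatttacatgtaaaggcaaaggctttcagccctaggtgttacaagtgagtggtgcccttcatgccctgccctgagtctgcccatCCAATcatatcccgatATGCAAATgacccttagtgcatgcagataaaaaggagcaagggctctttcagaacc
Aldh1a2: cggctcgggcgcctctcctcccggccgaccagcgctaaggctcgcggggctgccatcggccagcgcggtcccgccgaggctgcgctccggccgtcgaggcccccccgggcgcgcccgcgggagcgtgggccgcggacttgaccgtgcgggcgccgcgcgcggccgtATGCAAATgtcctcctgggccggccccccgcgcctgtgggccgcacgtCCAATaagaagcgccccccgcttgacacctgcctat

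Both windows held 1 octamer and 1 CCAAT, on the shown strand. The octamer began 56 bases before the start in Aldh1a1 and 84 bases before it in Aldh1a2, and the CCAAT began 72 and 36 bases before it. On either strand, the octamer occurred in 1.60% of 32851 promoter windows of this length, CCAAT in 33.8%, and both in 0.767%. The first start site of Aldh1a1 held neither. These motifs were picked after the 2 windows had been read, and a match is a description of the letters, not a binding site. The Aldh1a1 window was 46.4% G and C and the Aldh1a2 window 77.6%. The table had windows for 7 of the 9 genes, and Rdh10 and Crabp2 had none.

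Across the libraries, Aldh1a1 had 540 UMIs in A0 (3.58 CPM, 3.28 to 3.90) and 372 in A10 (2.59 CPM, 2.33 to 2.87). B0 had 103549 UMIs of it (4089 CPM, 4064 to 4114), and BA10 had 8829 (96.7 CPM, 94.7 to 98.7). Over all deposited cells, Aldh1a1 was thus low without busulfan, very high with busulfan alone, and in between with busulfan plus AOS. The lowest UMI count of a cell was not the same in the libraries, and only 20 of the 3030 Leydig-like cells of B0 had at least 9013 UMIs. Among cells that reached this limit, B0 had 274 CPM of Aldh1a1 and BA10 96.7, while A0 and A10 had 2.80 and 2.25. How much of the pattern came from the unlike lowest counts was not tested. When each cell was thinned to 2985 UMIs, a UMI of Aldh1a1 was found in 0.727% of A0 cells, 0.485% of A10 cells, 84.9% of B0 cells and 12.5% of BA10 cells.

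Aldh1a2 had 9840 UMIs in A0 (65.2 CPM, 64.0 to 66.5) and 9136 in A10 (63.6 CPM, 62.3 to 64.9). B0 had 1357 UMIs of it (53.6 CPM, 50.8 to 56.5), and BA10 had 9692 (106 CPM, 104 to 108). Its level was highest in BA10, and the 4 libraries spanned 53.6 to 106 CPM. B0 was lowest over all cells but not in cells with at least 9013 UMIs, where it had 70.7 CPM, against 66.5 in A0 and 66.3 in A10. After thinning, a UMI of it was held by 15.6% (A0), 14.4% (A10), 12.9% (B0) and 25.0% (BA10) of cells. Among cells thinned to 5000 UMIs, the shares were 23.9%, 22.6%, 24.1% and 36.7% in the same order, from 1424 cells in B0.

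Rdh10, which encodes the preceding step from retinol, was at 21.6 CPM in A0 (20.9 to 22.4) and 19.1 in A10 (18.4 to 19.8), whereas B0 had 5.69 (4.80 to 6.69) and BA10 2.34 (2.04 to 2.68). It was the 1 gene of the 9 whose level was lower in both busulfan libraries than in both libraries without busulfan, each time beyond the counting intervals.

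The blood carrier gene Rbp4 had few UMIs, at 144 (0.955 CPM) in A0 and 135 (0.939 CPM) in A10, against 95 (3.75 CPM) in B0 and 216 (2.37 CPM) in BA10. Both busulfan libraries were above both others beyond the counting intervals. Crabp2, in the same order of libraries, had 6, 12, 9 and 8 UMIs, so its level could not be set apart between A0, A10 and BA10 at this depth.

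Of the receptors, Rara was at 4.16 CPM in A0 (3.84 to 4.50), 4.19 in A10 (3.86 to 4.54) and 4.07 in BA10 (3.67 to 4.51), but at 20.9 in B0 (19.2 to 22.8). Of the 4, B0 alone stood apart, since the intervals of the other 3 libraries overlapped. Rarg was at 0.305 CPM in A0 (46 UMIs), 0.376 in A10 (54 UMIs), 0.734 in BA10 (67 UMIs) and 2.80 in B0 (71 UMIs). Rxrb, the partner receptor, was at 6.33 CPM in A0 (5.93 to 6.74) and 5.89 in A10 (5.50 to 6.30), against 15.9 in B0 (14.4 to 17.5) and 12.2 in BA10 (11.5 to 12.9), so it was higher in both busulfan libraries.

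The breakdown gene Cyp26b1 was at 0.179 CPM in A0 (27 UMIs) and 0.153 in A10 (22 UMIs), against 10.7 in B0 (271 UMIs) and 1.99 in BA10 (182 UMIs). B0 was highest and BA10 next, as for Aldh1a1, and the intervals of A0 and A10 overlapped.

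**Figure D1:**
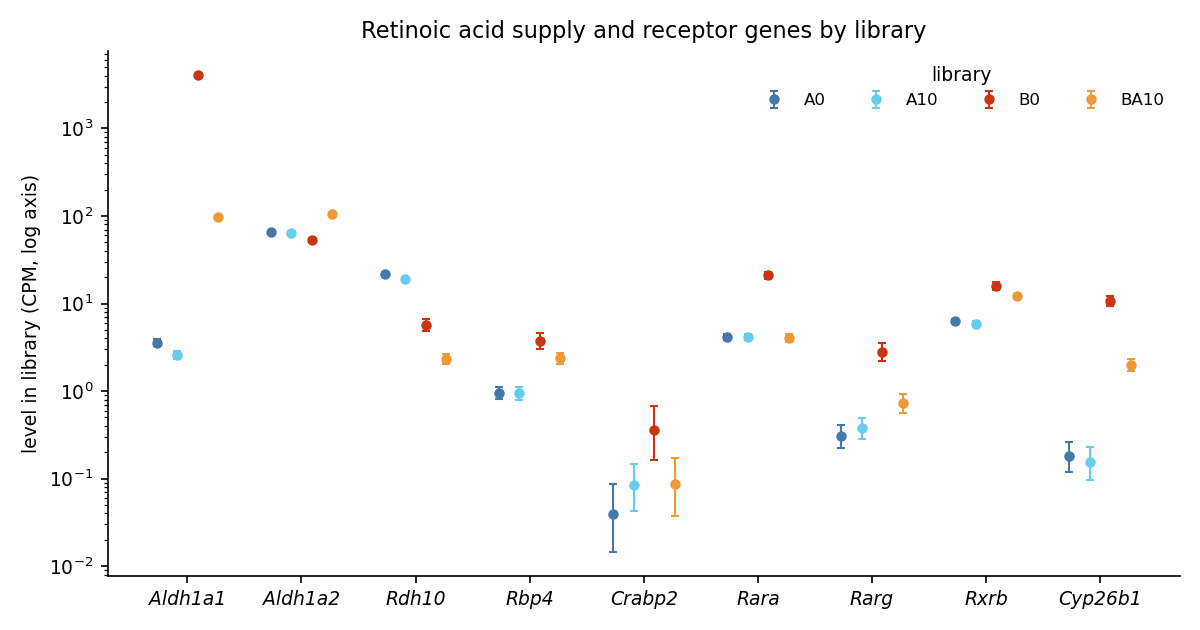
Level of each of the 9 genes in the 4 libraries, in CPM on a log axis, with exact 95% Poisson intervals of the counts as bars. Aldh1a1 spans 2.59 CPM in A10 to 4089 CPM in B0, while Aldh1a2 stays between 53.6 and 106 CPM.

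The cell classes showed where each gene was read, in 18 pools of 1 library and 1 class (or unnamed cluster) with at least 50 cells. A0 and A10 held no SPG-like, Sertoli-like or macrophage-like cells, and BA10 held 12, 5 and 5 of them. The pools of these classes were therefore from B0 only, and their levels could not be compared between libraries. Members and other retinoid genes could enter the clustering, so a pool against the rest is a description and not a test. Aldh1a1 was among the genes that led the Leydig-like cluster. With the retinoid genes left out of the clustering it was still highest in Leydig-like cells of B0.

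In B0, Leydig-like cells (Leydig cells make testosterone and the hormone Insl3) held 94920 of the 103549 Aldh1a1 UMIs (91.7%) at 7263 CPM (7217 to 7309), with a median of 29.0 UMIs a cell. In A0, 5 Leydig-like cells alone held 286 of the 540 Aldh1a1 UMIs (53.0%), and in A10, 8 such cells held 199 of 372 (53.5%). In BA10, 118 Leydig-like cells held 5764 of 8829 UMIs (65.3%) at 3136 CPM (3056 to 3219), and 3221 SPC-like cells held another 25.2% at 27.6 CPM.

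Outside those cells Aldh1a1 was read at 4622 CPM in macrophage-like cells, 458 CPM in Sertoli-like cells, 226 CPM in SPG-like cells and 147 CPM in SPC-like cells of B0. Insl3, the hormone gene of Leydig cells, serves as the measure of transcripts found in the wrong cells: it was at 8111, 216, 228 and 163 CPM in these pools, at median depths of 3896 to 5192 UMIs. Most macrophage-like cells of B0 were cluster 24, 266 cells there, which scored 1.0 for macrophage and 0.761 for Leydig markers. After thinning, 91.4% of the macrophage-like cells of B0 held an Aldh1a1 UMI and 90.5% an Insl3 UMI. In SPG-like cells of B0 the shares were 47.1% and 45.8%, and in SPC-like cells 37.7% and 42.1%. By this measure Aldh1a1 was not set apart from Insl3 in any of these classes. In Sertoli-like cells, by contrast, 73.7% held Aldh1a1 (67.0 to 79.7) and 46.5% held Insl3 (39.4 to 53.7). In SPC-like cells of BA10 the shares were 8.85% for Aldh1a1 and 12.9% for Insl3, so the share for Aldh1a1 was the lower one.

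Per 100 Insl3 UMIs, Leydig-like cells of B0 had 61.3 UMIs of Aldh1a1 (60.8 to 61.8) and macrophage-like cells 57.0 (55.3 to 58.8). Sertoli-like cells had 212 (178 to 254), the highest of the 10 pools with at least 100 Insl3 UMIs. SPG-like cells had 99.1 (82.2 to 119.5) and SPC-like cells 89.9 (76.5 to 106), and cluster 17 of B0 had 108 (99.5 to 117). In BA10 the number was 86.4 in Leydig-like cells (83.4 to 89.5) and 66.1 in SPC-like cells (62.6 to 69.7). The share of Aldh1a1 beside Insl3 was thus not the same in all pools, and what made it differ was not tested.

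**Figure D2:**
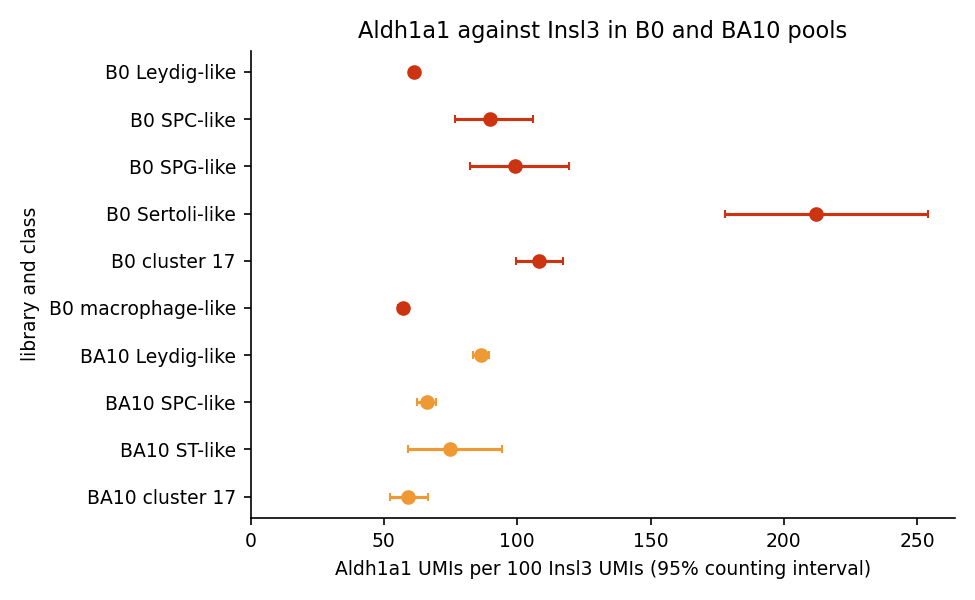
UMIs of Aldh1a1 per 100 UMIs of Insl3 on the horizontal axis, in each pool of B0 (red) and BA10 (orange) with at least 100 Insl3 UMIs, with 95% counting intervals. Sertoli-like cells of B0, at 212, lie above all other pools, which range from 57.0 to 108.

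In A0, A10 and BA10, Aldh1a2 was higher in spermatocyte-like than in spermatid-like cells. SPC-like cells had 114 CPM in A0 (111 to 117), 107 in A10 (104 to 110.1) and 111 in BA10 (109 to 113), and ST-like cells of the same libraries had 38.4, 36.7 and 40.0 CPM. Its level in SPC-like cells of these 3 libraries lay between 107 and 114 CPM, and SPC-like cells held 59.7% of its UMIs in A0, 61.1% in A10 and 92.4% in BA10. The 228 SPC-like cells of B0 had 65.9 CPM (55.1 to 78.2), and cluster 17 of B0, whose leading genes were mixed, had 68.7 (62.6 to 75.3) and held 33.8% of the UMIs of that library, so SPC-like cells did not stand apart in B0.

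Within these classes Aldh1a2 was uneven. In A0 it reached 156 CPM in cluster 25 and 139 CPM in cluster 15, which both had Pou5f2 and Mllt10 among their leading genes, and was at 6.14 CPM in cluster 3, the ST-like cluster led by the protamine gene Prm1. In BA10 it was at 135 CPM in cluster 9, 96.8 CPM in cluster 5 and 73.8 CPM in cluster 16, all SPC-like. Most SPC-like cells of B0 were cluster 27, led by Sycp1 and Dazl, which had 38.9 CPM (27.7 to 53.2).

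Aldh1a2 was also read in somatic pools of B0, at 63.0 CPM in Sertoli-like (47.3 to 82.2), 49.8 in Leydig-like (46.1 to 53.8) and 31.1 in macrophage-like cells (22.5 to 41.8), but only at 14.8 CPM in SPG-like cells (8.30 to 24.5). In B0 the Leydig-like cells held 48.0% of its UMIs. Leydig-like cells of BA10 had 53.9 CPM (43.8 to 65.6), near those of B0. The spermatid gene Prm1 was at 372 CPM in these cells of BA10 and 3.83 in those of B0, and Aldh1a2 was at 106 CPM over the BA10 library. How much of the BA10 value came from RNA of other cells was not tested.

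Rdh10 was highest in spermatid-like cells. ST-like cells had 32.5 CPM in A0 (31.3 to 33.6), 29.6 in A10 (28.4 to 30.7) and 16.1 in BA10 (11.9 to 21.2), and held 93.5% of the Rdh10 UMIs of A0 and 94.1% of those of A10. Within ST-like cells it peaked in cluster 4, led by Hemgn and Faiml, at 117 CPM in A0 (111 to 123) and 104 in A10 (97.3 to 111). Cluster 13 had 64.7 and 66.3 CPM, and cluster 23, with the late spermatid gene Spem1 among its leaders, 5.70 and 1.42 CPM, the latter on 2 UMIs.

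SPC-like cells had 2.08 CPM of Rdh10 in A0 and 2.21 in A10. Prm1, a spermatid gene that spermatocytes should lack, was found in 98.0% of thinned SPC-like cells of A0 and 99.8% of those of A10. Per 10000 Prm1 UMIs there were 14.4 of Rdh10 in SPC-like cells (11.8 to 17.4) and 17.8 in ST-like cells (17.1 to 18.4) of A0, and 10.3 and 11.6 in A10, so Rdh10 in SPC-like cells was not above this background. Aldh1a2 had 791 and 21.0 UMIs per 10000 Prm1 UMIs in the same A0 classes. In B0, the Sertoli-like cells had the highest Rdh10 level, 25.7 CPM (16.1 to 38.9) on 22 UMIs.

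**Figure D3:**
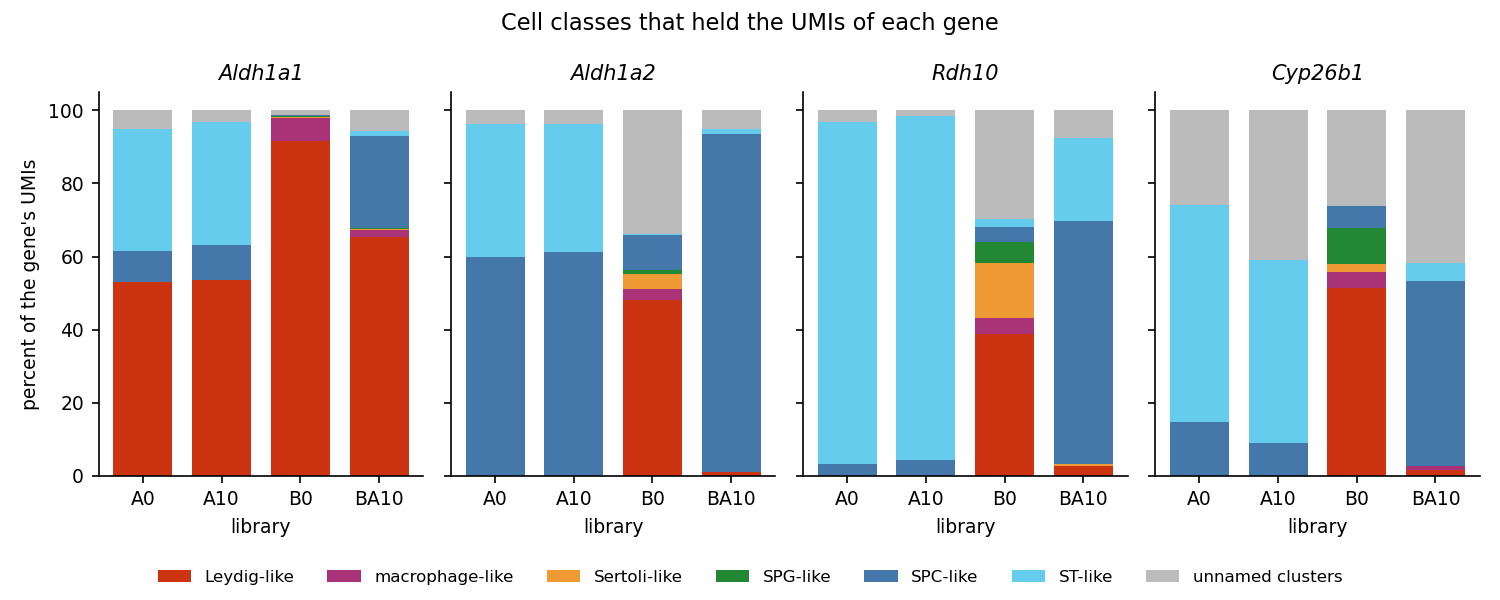
Percent of the UMIs of Aldh1a1, Aldh1a2, Rdh10 and Cyp26b1 in each library that came from each cell class, as stacked bars. Leydig-like cells held 91.7% of Aldh1a1 in B0, SPC-like cells 92.4% of Aldh1a2 in BA10, and ST-like cells 93.5% of Rdh10 in A0.

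The receptor genes had other patterns. Rara was highest in Sertoli-like cells of B0, at 86.3 CPM (67.8 to 108), followed by macrophage-like cells at 35.4 (26.2 to 46.8) and SPG-like, cluster 32 and Leydig-like cells at 22.6 to 24.8 CPM, whose intervals overlapped. Germ cell pools of A0 and A10 had 2.82 to 5.99 CPM. Rxrb was at 38.5 CPM in Sertoli-like (26.5 to 54.1) and 29.7 in SPG-like cells of B0 (20.0 to 42.4), which do not differ beyond counting error. Without busulfan it was higher in SPC-like cells, at 13.8 CPM in A0 and 11.5 in A10, than in ST-like cells, at 1.93 and 2.41.

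Rarg, the receptor gene known from differentiating spermatogonia, had 15.8 CPM in the SPG-like cells of B0 (9.05 to 25.7) and 16.5 in cluster 32 (4.50 to 42.3), the latter on 4 UMIs. It had 2.98 CPM in Leydig-like cells of B0 and 0.603 to 0.730 CPM in SPC-like cells of A0, A10 and BA10. The 228 SPC-like cells of B0 held 0 UMIs of it, which allows a share of up to 1.32% of cells with a UMI (3 counts of the total). A UMI of it was held by 0 of the 198 Sertoli-like cells of B0, which allows a share of up to 1.52% (3 counts of the total) of cells with a UMI, at a median depth of 3971 UMIs.

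Rbp4 was highest in spermatogonia-like cells. SPG-like cells of B0 had 61.3 CPM (47.0 to 78.6) and held 62 of the 95 Rbp4 UMIs of that library, and after thinning 15.1% of them had a UMI of it. Cluster 30 of BA10, led by Hist1h2ao and Stra8, had 20.6 CPM (12.7 to 31.5), and cluster 20 of A0 and A10, led by Dazl and Tex101, had 7.92 and 6.70. Sertoli-like and macrophage-like cells of B0 had 0 UMIs, and Leydig-like cells 0.995 CPM. The 12 SPG-like cells of BA10 held 27 of its 216 UMIs (12.5%). The ratio of Rbp4 over all germ-like against all somatic-like cells of B0 was 28.5-fold (15.7 to 56.1). At clustering resolution 0.5, where no cluster took the SPG name, it turned, to a log2 ratio of -0.51. A cluster with 755 cells of B0 then took the Sertoli name, with Sdc4, Ctsl and Hist1h2ao among its leading genes.

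Cyp26b1 was highest in cluster 32 of B0, 65 cells led by the tight junction gene Cldn5 with Ifitm3 and Igfbp7, at 82.5 CPM (50.4 to 127) on 20 UMIs. This cluster scored best for endothelial markers and next for peritubular myoid markers, but the stromal gene Dcn among its leading genes left it unnamed. SPG-like cells of B0 followed at 26.7 CPM (17.6 to 38.9), and cluster 17 of BA10 at 16.7 (13.0 to 21.0), where 39.0% of the Cyp26b1 UMIs of BA10 were, against 7.65 (5.70 to 10.1) in cluster 17 of B0. The leading genes of cluster 17 were mixed, with the stromal genes Dcn and Gsn, the globin genes Hba-a1 and Hbb-b1 and the macrophage genes C1qa and Cd74. Leydig-like cells of B0 had 10.6 CPM and, being many, held 51.3% of its UMIs there. In pools of A0 and A10 it was between 0.0384 and 0.479 CPM, but the few cells of cluster 17 there held a large part of it, with 6 of 27 UMIs from 16 cells in A0 and 7 of 22 from 11 cells in A10.

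**Figure D4:**
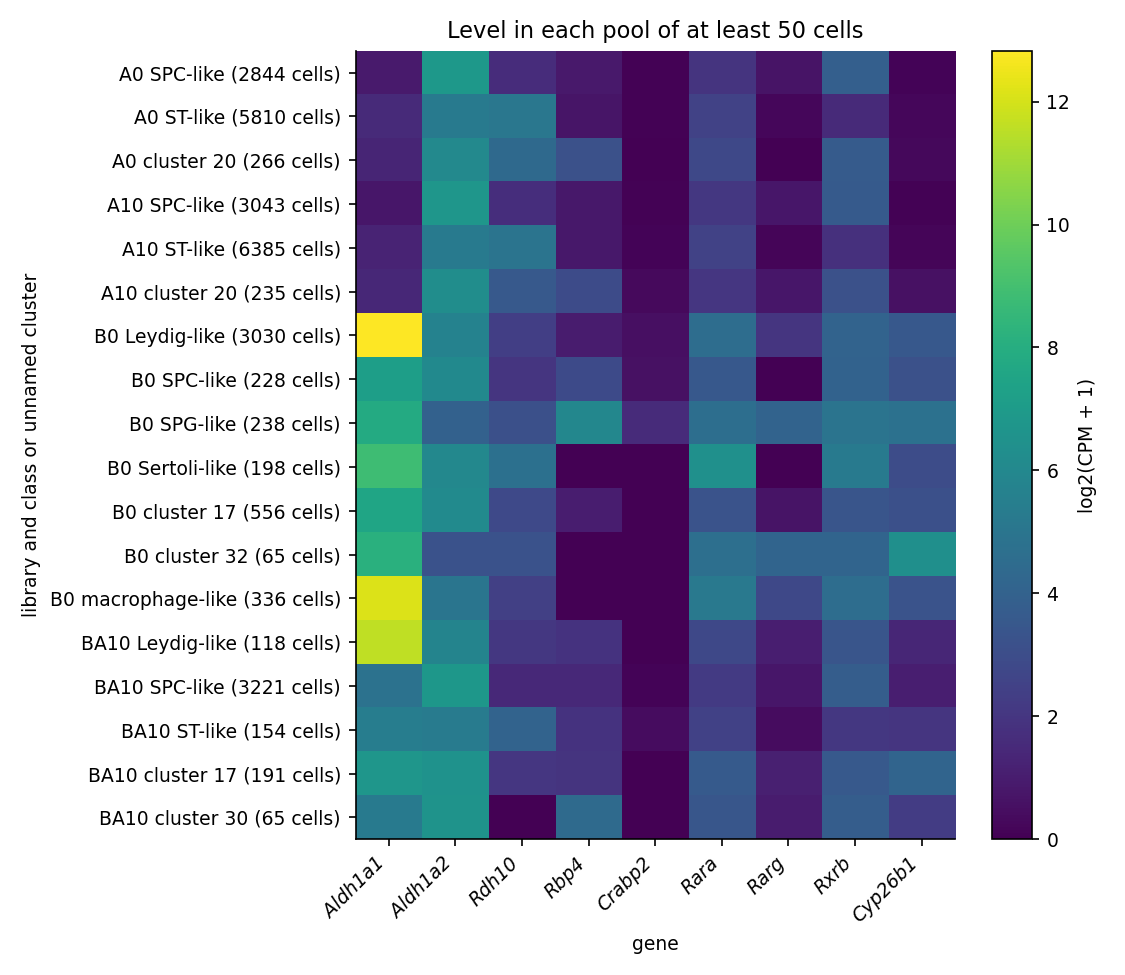
Colour shows log2(CPM + 1) of each gene (columns) in each pool of at least 50 cells (rows). Aldh1a1 is brightest in Leydig-like and macrophage-like cells of B0, Aldh1a2 in SPC-like cells, Rbp4 in SPG-like cells and Rara in Sertoli-like cells.

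The genes whose level over the 18 pools was most like that of each member are given by Pearson's r of log2(CPM + 1), as a description, since pools of 1 library share depth and free RNA. For Aldh1a1 they included Lcn2 (r = 0.995) and Akr1cl (0.995). For Aldh1a2 they were Eme2 (0.95), Stxbp2 (0.943) and Dnajc28 (0.938). Rdh10 was most like Rhobtb3 (0.919), Bsdc1 (0.909) and Cyp1b1 (0.902), and Rbp4 most like Spint1 (0.952), Zglp1 (0.946) and Figla (0.942). Rara came closest to Mapkapk3 (0.980), Scrn2 (0.970) and Hk2 (0.964), and Rxrb to Cmtr1 (0.980), Gtf2e1 (0.976) and Commd8 (0.970). For Rarg they were Klhl13 (0.956), Hist1h1b (0.940) and Shroom4 (0.934), and for Cyp26b1 Adamts5 (0.972), Rarres2 (0.965) and Mgp (0.963).

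The first comparison asked about AOS without busulfan. None of the 5 genes at 1 CPM or more differed by 2-fold between A10 and A0, where 0.123% of 11362 genes were higher and 0.282% lower in A10 by that much. Aldh1a1 was 0.723-fold (0.632 to 0.827) and Rdh10 0.882-fold (0.838 to 0.928), both beyond counting error, and Rara was 1.01-fold (0.899 to 1.13). For Aldh1a1, 5 Leydig-like cells held 286 of 540 UMIs in A0 and 8 held 199 of 372 in A10. The interval does not hold the spread between so few cells. Within ST-like cells, Rdh10 was 0.910-fold (0.863 to 0.959) and Aldh1a1 0.743-fold (0.587 to 0.939), and within SPC-like cells Aldh1a2 was 0.938-fold (0.904 to 0.974). Rxrb went both ways, at 0.839-fold (0.752 to 0.937) within SPC-like and 1.25-fold (1.02 to 1.53) within ST-like cells. Within the unnamed cluster 20, which scored 0.241 for ST and 0.226 for SPC, Rdh10 was 0.547-fold (0.376 to 0.784) and Aldh1a2 1.23-fold (1.05 to 1.44). Whether the same kinds of cell made up this cluster in both libraries was not tested. Of 22 other genes of the wider retinoid list at this level, 1 passed 2-fold, Rarb, with 158 UMIs in A0 and 72 in A10, named after its values were seen. The medians of the log2 ratio were -0.10 for the members, -0.10 for the others and -0.03 for all genes.

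Between B0 and A0, 6 of 8 genes were higher in B0 by 2-fold or more (Aldh1a1, Cyp26b1, Rarg, Rara, Rbp4 and Rxrb) and 1, Rdh10, was lower. The background was high: 48.1% of 14757 genes were higher and 21.0% lower in B0, and the median of all genes was shifted by 0.85 on the log2 scale. With this shift subtracted, 5 were higher, without Rxrb, and 2, Rdh10 and Aldh1a2, were lower, beside 37.8% and 35.4% of genes. Aldh1a1 was 1142-fold (1049 to 1245) and Cyp26b1 59.8-fold (40.2 to 92.4), while Rarg was 9.19-fold (6.26 to 13.6), Rara 5.03-fold (4.48 to 5.66), Rbp4 3.93-fold (3.00 to 5.13) and Rxrb 2.52-fold (2.23 to 2.83). Rdh10 was 3.80-fold lower, with a ratio of 0.263 (0.221 to 0.311), and Aldh1a2 was 0.821-fold (0.775 to 0.869).

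When only cells with at least 9013 UMIs were used, 2 of 7 genes were higher in B0 (Aldh1a1 and Cyp26b1) and Rdh10 was lower, against 31.5% and 10.9% of 13618 genes. Aldh1a1 was then 98.0-fold (87.9 to 109), Cyp26b1 34.5-fold (21.0 to 57.9) and Rdh10 0.286-fold (0.206 to 0.386). Rara was 1.60-fold (1.16 to 2.16) and Rbp4 1.22-fold (0.516 to 2.47). Aldh1a2 was 1.06-fold (0.968 to 1.16), not apart from 1 beyond counting error. This limit kept 20 of 3030 Leydig-like cells and 0 of 238 SPG-like cells of B0, and 361 of the 448 cells kept were cluster 17. Insl3 moved with Aldh1a1, from 7099.5-fold over all cells to 443-fold, and how much of the Aldh1a1 ratio came from the number of Leydig-like cells was not tested. Within SPC-like cells, which different clusters held in the 2 libraries, Aldh1a2 was 0.576-fold in B0 (0.481 to 0.685). Higher in B0 within these cells were Aldh1a1 at 164-fold (119.9 to 229), Cyp26b1 at 103-fold (33.1 to 422, on 4 UMIs in A0), Rbp4 at 7.76-fold (3.83 to 14.7) and Rara at 3.72-fold (2.23 to 5.90). Insl3 was 365-fold (239 to 584) there.

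Between BA10 and B0, 5 of 8 genes were lower in BA10 by 2-fold or more (Aldh1a1, Cyp26b1, Rara, Rarg and Rdh10) and 0 were higher, beside 46.6% and 16.3% of 14416 genes. The median of all genes was -0.76 on the log2 scale. With this median subtracted, 4 were lower, without Rdh10, and 1, Aldh1a2, was higher, beside 36.9% and 32.4% of genes. Aldh1a1 was 42.3-fold lower, with a ratio of 0.0236 (0.0231 to 0.0242), Cyp26b1 0.186-fold (0.154 to 0.226), Rara 0.195-fold (0.170 to 0.223), Rarg 0.262-fold (0.185 to 0.371) and Rdh10 0.412-fold (0.332 to 0.513). Aldh1a2 went the other way, at 1.98-fold (1.87 to 2.10). Within cluster 17, whose leading genes were mixed, Cyp26b1 was 2.18-fold (1.5 to 3.18), opposite to its ratio over the libraries, and whether the same kinds of cell made up this cluster in both was not tested.

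In cells with at least 9013 UMIs, Aldh1a1 was 0.352-fold (0.335 to 0.371), Rdh10 0.374-fold (0.268 to 0.532) and Cyp26b1 0.304-fold (0.218 to 0.431), which made 3 of 7 lower, and Rbp4 was 2.03-fold (1.01 to 4.76), beside 27.3% lower and 2.0% higher of 13327 genes. Rbp4 and Rxrb thus turned, since over all cells Rbp4 was 0.631-fold (0.493 to 0.811) and Rxrb 0.766-fold (0.683 to 0.861), against 1.33-fold (1.03 to 1.74) for Rxrb at the limit. For Rbp4 the ratio at the limit rests on 8 UMIs in B0. The limit kept 0 of the 238 SPG-like cells of B0, which held 62 of its 95 UMIs there. Rara was 0.608-fold (0.446 to 0.844) at the limit. Rarg had 4 UMIs in B0 there and was not tested. Within Leydig-like cells, 3030 in B0 and 118 in BA10, most of them in different clusters, Aldh1a1 was 0.432-fold (0.420 to 0.443) and Insl3 0.306-fold (0.299 to 0.314). The spermatid gene Prm1 differed the other way, at 3.83 CPM in the Leydig-like cells of B0 and 372 in those of BA10 (97.3-fold, 73.0 to 132), beside 35.0 and 359.7 CPM over the libraries, and its part in the Aldh1a1 ratio was not tested.

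Between BA10 and A0, 3 of 7 genes were higher in BA10 (Aldh1a1, Cyp26b1 and Rbp4) and Rdh10 was lower, beside 24.2% and 20.1% of 12541 genes, and the same 4 genes were called in cells with at least 9013 UMIs, beside 23.5% and 20.2%. With the median ratio of all genes subtracted, 2 of 7 were higher, without Rbp4, and Rdh10 was lower, beside 12.0% and 25.1%. Aldh1a1 was 27.0-fold (24.8 to 29.5), Cyp26b1 11.1-fold (7.41 to 17.4), Rbp4 2.48-fold (2.0 to 3.08) and Rxrb 1.93-fold (1.77 to 2.10). Rdh10 was 0.108-fold (0.0940 to 0.125), at an ST-like share of 4.08% in BA10, and within ST-like cells it was 0.494-fold (0.365 to 0.655). Of the 154 ST-like cells of BA10, 132 were cluster 28, which held 2 cells of A0, whereas cluster 4, where Rdh10 peaked in A0, held 2 cells of BA10. With cells classed in the 5 other ways, 193 to 508 cells of BA10 were ST-like, and Rdh10 within ST-like cells was 0.289-fold to 0.509-fold. Aldh1a2 was 1.63-fold over the libraries (1.58 to 1.67) and 0.970-fold within SPC-like cells (0.939 to 1.00). The SPC-like cells of BA10 were mostly clusters 5, 9 and 16, which held 0 cells of A0, so this ratio compares different clusters. This comparison, the one before it and that of B0 with A0 share libraries, so they are not independent of each other.

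**Figure D5:**
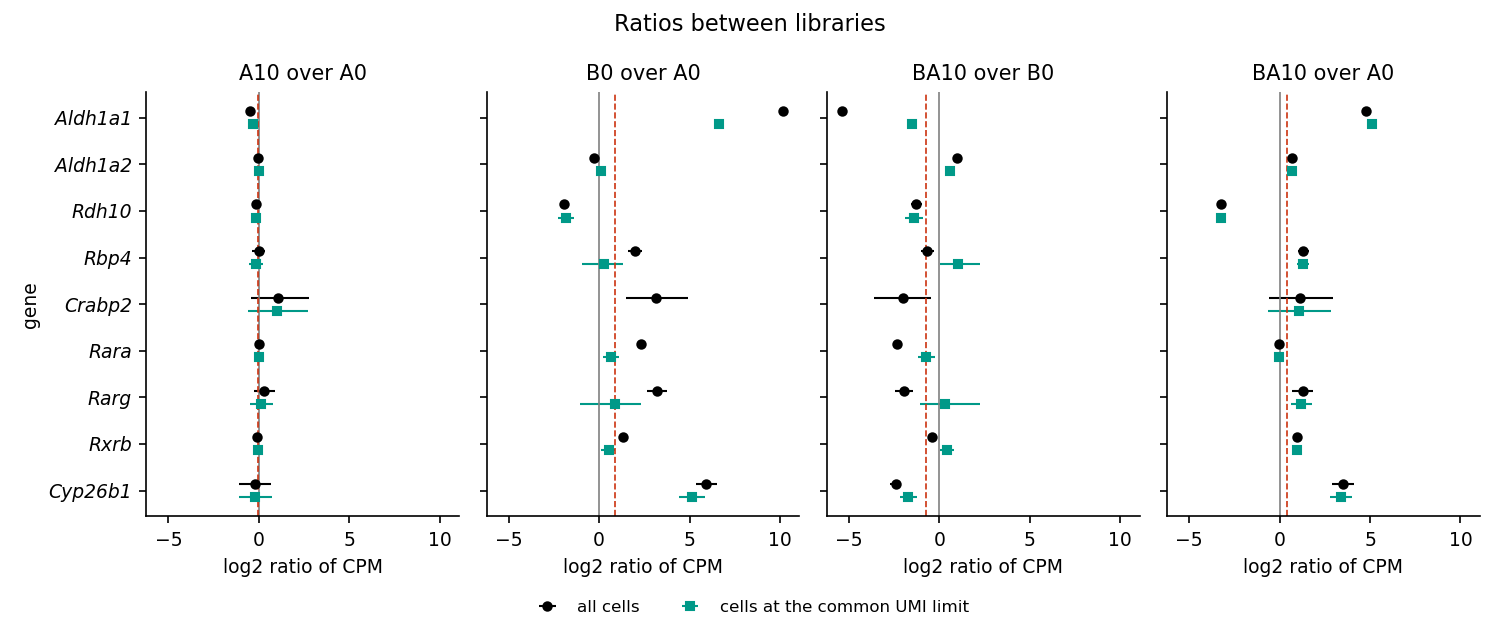
Log2 ratio of CPM for each gene in the 4 comparisons, with 95% counting intervals, over all cells (black circles) and over cells with at least 9013 UMIs (green squares). The dashed red line is the median of all genes tested over all cells (-0.03, 0.85, -0.76 and 0.42 from left to right), and a ratio with an interval that has no bound on 1 side is left out.

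The wider retinoid list held 44 genes of the table, 35 of them not among the 9. Between B0 and A0, 19 of 30 of the others at 1 CPM or more were higher in B0 (63.3%, beside 48.1% of all genes) and 6 lower (20.0%, beside 21.0%). At the 9013 UMI limit, 13 of 28 were higher (46.4%, beside 31.5%) and 4 lower (14.3%, beside 10.9%). The alcohol dehydrogenase gene Adh1 was at 0.166 CPM in A0 and 89.6 in B0, the retinaldehyde reductase gene Dhrs3 at 0.272 and 71.9, and Adh5 at 1.23 and 181. Fabp5, which encodes a carrier of fatty acids and retinoic acid, was at 1.34 and 121 CPM, and Crabp1, which encodes another cellular carrier of retinoic acid, at 0.723 and 10.5. Among genes that respond to retinoic acid or mark responding cells, Stra8 was at 1.27 and 29.8 CPM, Kit at 2.31 and 101, and the cyclin gene Ccnd2 at 0.332 and 38.6. Such levels are over all cell classes of a library, and whether they reflect a response to retinoic acid was not tested. These B0 levels were much lower in cells with at least 9013 UMIs, where Adh1 was at 0.169 CPM in A0 and 8.60 in B0, Dhrs3 at 0.274 and 9.33, Adh5 at 1.18 and 21.1, Fabp5 at 1.26 and 38.9 and Crabp1 at 0.725 and 1.60, the last on 11 UMIs in B0. Stra8 was there at 1.17 and 3.79, Kit at 2.36 and 7.14 and Ccnd2 at 0.338 and 4.52. Rec8 was lower, at 30.5 CPM in A0 and 9.24 in B0, and Sohlh1 was at 2.93 and 8.13 over all cells but at 2.94 and 1.17 at the UMI limit. Bco1, which encodes the enzyme that cleaves beta-carotene, was at 46.6 CPM in A0 and 4.30 in B0. Rdh11 (93.8 and 34.7 CPM) and Lrat (20.4 and 9.60) were lower in B0 as well. At the UMI limit these were close, at 95.1 and 92.1 CPM for Rdh11 and 20.5 and 23.5 for Lrat. Rec8, Sohlh1, Rdh11 and Lrat were named in this comparison after their values were seen.

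Between BA10 and B0, 19 of 28 were lower (67.9%, beside 46.6% of all genes) and 2 were higher (7.14%, beside 16.3%), Rdh11 and Lrat, the latter encoding the enzyme that stores retinol as esters. At the UMI limit, 10 of 26 were lower (38.5%, beside 27.3%) and 0 higher. Rdh11 was at 34.7 CPM in B0 and 137 in BA10, and Lrat at 9.60 and 21.5. At the limit Rdh11 was 1.49-fold (1.37 to 1.61), and Lrat was 0.918-fold (0.781 to 1.08), not apart from 1 beyond counting error. The lower ones were led by Kit (101 CPM in B0 and 2.25 in BA10), Ccnd2 (38.6 and 1.39), Dhrs3 (71.9 and 3.08) and Adh1 (89.6 and 4.81). The receptor gene Rxra (40.4 and 2.21) and the coactivator gene Ncoa2 (26.8 and 2.84) were lower as well. At the limit Adh1 was 0.559-fold (0.425 to 0.747) and no longer past 2-fold, while Dhrs3 was 0.330-fold, Kit 0.314-fold, Ccnd2 0.308-fold, Rxra 0.410-fold and Ncoa2 0.256-fold. Between BA10 and A0, 8 of 26 were higher (30.8%, beside 24.2% of all genes) and 5 lower (19.2%, beside 20.1%), among them Adh5 at 11.4 against 1.23, Fabp5 at 12.0 against 1.34, Rec8 at 13.9 against 30.5 and Bco1 at 4.94 against 46.6 CPM.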

How the data were processed

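Cells were captured with the Chromium single-cell 3′ chemistry. Per the submitters' processing notes, the authors used Cell Ranger 2.2.0 and mm10; per the methods of the study, they normalized with Seurat. The deposited values are natural logs: the authors scaled each cell to 10000 UMIs, added 1 and took logs. UMIs were recovered by dividing by the lowest value of each cell, after which 100% of values above 0 were whole within 0.001. All 27060 deposited cells were used, with no further filter, and doublets were kept. Scrublet called between 4 cells (0.0859%, B0) and 838 cells (8.66%, A10), which in B0 does not count as working.

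The members and lists were chosen with earlier results of these data known. Levels are CPM of summed UMIs with exact Poisson intervals, shares have exact Clopper-Pearson intervals, and ratios have exact conditional binomial intervals, all at 95% and covering counting error only, with counts under 3 raised to 3 in ratios. A gene was called where its CPM differed by 2-fold or more, among genes at 1 CPM or more in either library. To compare shares, each cell was thinned to 2985 UMIs, the lowest of any cell.

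Clusters came from scanpy 1.11.5 and leidenalg 0.10.2 (2000 variable genes, 30 principal components, 15 neighbours, resolution 1), with no alignment of libraries, and gave 33 clusters. A cluster took the class whose markers were, on average, nearest to their top level in any cluster, among classes with at least 3 markers detected in 10% of its cells, and stayed unnamed where its leading 10 genes held more markers of another class. This rule, the minimum of 3 markers and a further division of 1 mixed cluster at resolution 0.2 were set after seeing the data. Names given without the minimum rested on fewer markers, and a division at resolution 1 was tried and dropped because it turned the name of a macrophage-like cluster. Names rebuilt this way may differ from those of the study.

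Named genes were the 9 members, genes of a retinoid list of 45 (44 in the table) past 2-fold and at 10 CPM or more (at most 10 a comparison), and for each member with at least 100 UMIs the 3 genes most like it over pools among those at 10 CPM or more in at least 1 pool. Some genes that this rule selects are not reported here. Insl3 and Prm1 served as measures of transcripts found in the wrong cells, and how these came to be there was not tested. The ratio calculation was tested on simulated data. Gene positions came from GENCODE M21 and promoters from RefSeq.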

Additional observations from a re-analysis of the deposited data

How the results depend on the processing

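The 9013 UMI limit turned 4 ratios of members; it changes which cells are counted as well as their depth, which cannot be told apart. In cells with at least 9013 UMIs, Aldh1a2 in B0 over A0 turned to a log2 ratio of 0.09 (-0.05 to 0.22). In BA10 over B0, Rbp4 turned to 1.02 (0.02 to 2.25), Rarg to 0.33 (-1.09 to 2.25) and Rxrb to 0.41 (0.04 to 0.8). The intervals of Aldh1a2 and Rarg include no change, and B0 had 8 UMIs of Rbp4 and 4 of Rarg at the limit. Over the 8 members tested over all cells, the median was then 0.60 in B0 over A0 (2.15 over all cells) and -0.19 in BA10 over B0 (-1.61). Over the 7 tested at the limit, without Rarg, it was 0.53 and -0.72. Of these 7, 2 were higher in B0 than A0 (beside 31.5% of all genes). Between BA10 and B0, 1 was higher in BA10 (beside 2.0%) and 3 were lower (beside 27.3%). With the median ratio of all genes subtracted, Rbp4 (0.09) and Rxrb (0.38) turned in BA10 over B0, the medians were 1.30 and -0.85, and 2 members were lower in B0 than A0 (Rdh10 and Aldh1a2, beside 35.4% of all genes) and 1 higher in BA10 than B0 (Aldh1a2, beside 32.4%). Rxrb in B0 over A0 (0.48), Rdh10 in BA10 over B0 (-0.52) and Rbp4 in BA10 over A0 (0.89) then lay under 2-fold. With 1 CPM added, the medians were 1.41 and -1.07. Counting only genes at 10 CPM or more left 3 of 5 members lower in BA10 than B0 (beside 40.2% of all genes) and 1 of 4 higher in BA10 than A0 (17.1%). With no filter, 1 member (Crabp2, on 12 and 6 UMIs) was higher in A10 than A0 (beside 1.72% of all genes) and 5 of 9 were higher in BA10 than A0 (28.3%).

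Over all 44 retinoid genes, members included, the 9013 UMI limit gave 15 higher in B0 than A0 (25 over all cells), or 42.9% beside 31.5% of all genes, and 1 higher and 13 lower in BA10 than B0 (2 and 24), or 3.03% and 39.4% beside 2.0% and 27.3%. Subtracting the median gave 7 of 36 higher in BA10 than B0 (19.4%, beside 32.4%). At 10 CPM or more, 0 of 10 were lower in A10 than A0 (beside 0.0744%), and of 15, 4 were higher (26.7%, beside 17.1%) and 3 lower (20.0%, beside 20.7%) in BA10 than A0.

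With unnamed clusters left out, 3 of the 9 members were highest in a somatic-like class (Aldh1a1, Rara and Rxrb), beside 40.6% of all genes. Cyp26b1 was higher in the unnamed cluster 32 than in any named pool, and Rarg was there at 16.5 CPM against 15.8 in SPG-like cells, within counting error. The count became 7 at resolution 0.5 (67.3% of all genes), where no separate SPG-like pool was highest for any of them, and 5 with classes set per cell (59.0%) or without retinoid genes in the clustering (45.3%). Without retinoid genes, a cluster of 66 cells of B0 took the endothelial name and was highest for Rarg and Cyp26b1. At resolution 0.5 Rbp4 in germ-like over somatic-like cells of B0 turned to a log2 ratio of -0.51. In every clustering tried, Aldh1a1 was highest in Leydig-like, Aldh1a2 in SPC-like and Rdh10 in ST-like cells. The ST-like share of BA10 was 4.08%, against 5.11% without retinoid genes, 11.1% with 1000 variable genes and 13.4% at resolution 0.5, at resolution 2 and per cell (chosen after seeing the data), and Aldh1a2 within SPC-like cells, BA10 over A0, was 0.970-fold against 0.975-fold to 1.05-fold. Leaving out Scrublet cells, or the 751 cells whose barcode occurs in another library (an alternative chosen after seeing the data), changed no count of members called and turned no ratio. For B0, where Scrublet called only 4 cells, leaving these out cannot show whether doublets mattered. With 1 library per group no replicate could be left out. No paired analysis was possible because each group was 1 library. B0 had the lowest depth, and Rarg, Rbp4 and Crabp2 had under 100 UMIs in it.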

Other observations

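The wider retinoid list showed further patterns over the pools, given as values. Fabp5, which encodes a carrier of fatty acids and retinoic acid, was at 492 CPM in Sertoli-like cells of B0, against 149.6 in Leydig-like and 93.0 in SPG-like cells. Adh1 was at 231 CPM in cluster 32, 153 in Leydig-like cells of B0 and 149 in Leydig-like cells of BA10. Dhrs3 was at 119 CPM in Leydig-like cells of B0, 128 in macrophage-like cells of B0 and 59.9 in Leydig-like cells of BA10.

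Stra8, the gene known to respond to retinoic acid at the start of meiosis, was at 624 CPM in the SPG-like cells of B0, whose cluster it helped to lead. It was at 119.7 CPM in cluster 30 of BA10 and at 24.1 and 29.4 CPM in cluster 20 of A0 and A10. Crabp1, a leading gene of cluster 30, was at 225 CPM in those SPG-like cells, 57.9 in cluster 30, and 12.6 and 9.57 in cluster 20 of A0 and A10. Bco1 was at 70.0 CPM in ST-like cells of A0, 66.3 in those of A10 and 55.0 in those of BA10, and at 3.10 to 5.21 CPM in SPC-like cells of these libraries.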
